A study of Gallus gallus with 4 samples.

Results

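RBFOX3, CELF3, CELF5, TRIM9 and MAP1A are 5 genes of postmitotic neurons that encode RNA-binding proteins, a ubiquitin ligase and a microtubule-associated protein. They were taken by symbol from the 17108 genes of the authors' deposited table, as a reading of how far the sorted neural tube cells had differentiated. Each symbol stood on a single line, and all 5 genes had an adjusted p-value, as did 12574 genes in all. The genes were chosen by symbol with their fold changes and adjusted p-values in this comparison known, so the values of the 5 genes are given as a description and support nothing beyond themselves.

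The Hoxb8 group held 2 libraries from chick embryos whose neural tube received 1 µg/µl Hoxb8-pCIG mixed with 1 µg/µl pCIG. The control group held 2 libraries from embryos given pCIG alone at 2 µg/µl. Both groups were electroporated in ovo at Hamburger-Hamilton stage 11, and the GFP-expressing part of the trunk neural tube was dissected 18 hours later, dissociated and sorted for live GFP-positive cells. GFP comes from the pCIG plasmid and marks cells that took up DNA, whatever their type, and no step named in the labels separated neurons from progenitors. The labels name no strain, embryo pool or day, so the p-values cover the spread between these libraries alone, which may be technical. The authors' deposited table gives 1 mean over the 4 libraries and 1 fold change per gene, so values per library cannot be shown for any gene. HOXB8 has 0 lines there under its symbol, so the direction was taken from the table's title and not checked on the electroporated gene.

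The wall of the early neural tube consists of dividing progenitors, and cells that leave the cell cycle detach from its inner surface and mature into neurons at its outer edge. As they mature, neurons switch on their own sets of RNA-binding proteins, which change how transcripts are spliced and translated, and they build a microtubule cytoskeleton for the axon and dendrites. RBFOX3 is the protein known as NeuN, a splicing regulator whose antibody staining is a standard mark of mature neurons. CELF3 and CELF5 belong to the CUGBP and ELAV-like family, in which they form part of a subgroup found mainly in the nervous system. TRIM9 is a ubiquitin ligase enriched in brain that, in the mouse, binds the netrin receptor DCC and shapes axon branching. MAP1A binds microtubules and is abundant in the dendrites and axons of mature neurons.

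RBFOX3 was the 1 gene of the 5 whose deposited adjusted p was under 0.05, the threshold for a call used here, and it was higher in Hoxb8. No gene of the 5 was called lower, and the other 4 were not called in either direction. Over all tested genes 15.2 percent were called at an adjusted p under 0.05, 8.72 percent as higher and 6.49 percent as lower in Hoxb8. The fold changes of the 5 genes lay on both sides of 0, with 3 above and 2 below. Their median log2 fold change was 0.043 per the authors' deposited table, beside -0.0053 for all 12574 tested genes. The 5 genes were not shown here to be expressed in neurons alone. In bulk RNA, changes in the number of neurons, in RNA per neuron and in RNA from other sorted cells cannot be told apart.

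Among the RNA-binding genes, RBFOX3 (ENSGALG00000029123) had a mean of 1036 normalised counts and a log2 fold change of 0.47 ± 0.17 per the authors' deposited table (± is the standard error throughout; adjusted p = 0.0440). On the linear scale it was 1.39-fold higher, with a 95% interval of 1.10 to 1.76 computed from that standard error. Put back into group terms, the deposited mean and fold change correspond to about 1205 normalised counts in Hoxb8 and 868 in control, which are implied and not measured levels. Since the deposited fold changes are moderated toward 0, the folds and 95% intervals here and below are moderated too. For the same reason all implied levels may lie too close together. The fold change of RBFOX3 sat close to the limit of what was called. At its standard error, RBFOX3 needed a log2 fold change of at least 0.46 to pass. By p-value it ranked 1816 of the 1913 called genes per the authors' deposited table. As many as 1199 other tested genes had a log2 fold change at least as high, whether called or not. Centred on genes of similar mean, its log2 fold change was 0.39 and its adjusted p was 0.125, past the threshold no longer. Over the 9 alternative settings and the deposited one, its adjusted p ran from 0.00575 to 0.804. The lowest came with the median of genes over a mean of 10000 set to 0, which raised every log2 fold change by 0.12. The highest came with scores divided by their central spread over all tested genes (1.74).

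CELF3 (ENSGALG00000028478) had the lowest mean of the 5 genes, 571 normalised counts, and a log2 fold change of 0.19 ± 0.20 per the authors' deposited table (adjusted p = 0.600). The corresponding fold of 1.14 had a 95% interval of 0.869 to 1.49, with implied levels of about 608 normalised counts in Hoxb8 and 534 in control. CELF5 (ENSGALG00000026716), its close relative, had a mean of 2098 and a log2 fold change of 0.043 ± 0.14 per the authors' deposited table (adjusted p = 0.890). The fold of CELF5 was 1.03, with a 95% interval of 0.851 to 1.25. Neither CELF gene was called under any of the settings tried. At these errors a log2 fold change of 0.53 for CELF3 and 0.37 for CELF5 was needed for a call, so smaller differences could not have passed.

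TRIM9 (ENSGALG00000012367) was almost level between the groups. Its mean was 2127 normalised counts and its log2 fold change -0.075 ± 0.14 per the authors' deposited table (adjusted p = 0.789), a fold of 0.949 with a 95% interval of 0.786 to 1.15. With the median of the genes over a mean of 10000 set to 0, which shifts every gene by 0.12 on the log2 scale, TRIM9 turned to 0.050 and was not called there either.

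MAP1A (ENSGALG00000008425) had the highest mean of the 5 genes, 4129 normalised counts, and the lowest fold change. Its log2 fold change was -0.27 ± 0.15 per the authors' deposited table (adjusted p = 0.224), a fold of 0.829 with a 95% interval of 0.679 to 1.01. The implied levels were about 3743 normalised counts in Hoxb8 and 4515 in control. A log2 fold change of 0.39 in size was needed for a call at its standard error. MAP1A stayed below 0 and uncalled in all 10 settings, with log2 fold changes of -0.27 to -0.15. Its 95% interval on the log2 scale, -0.56 to 0.018, did not overlap that of RBFOX3, 0.13 to 0.81. This pair holds the lowest and the highest of the 5 fold changes, so a gap between them was favoured in advance. The difference between these genes was not tested.

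**Figure D1:**
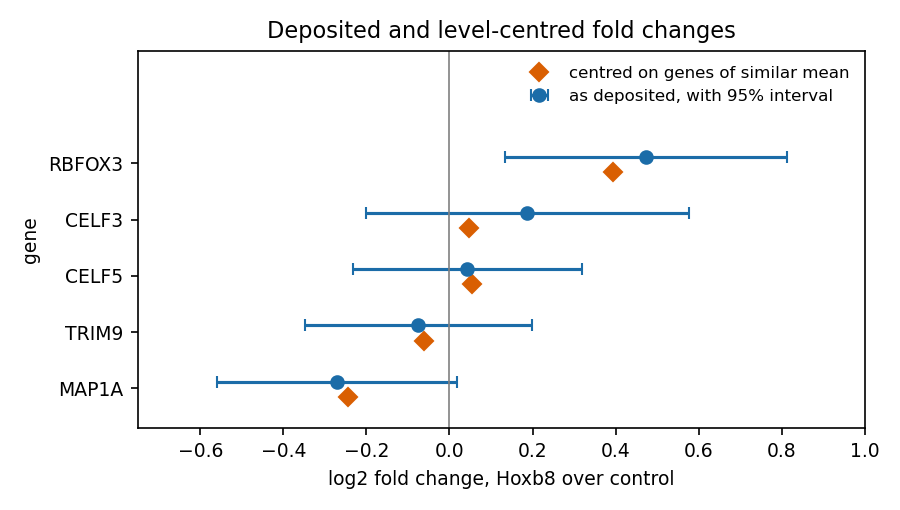
Log2 fold change of each gene, Hoxb8 over control, on the x axis. Circles are the authors' deposited values with 95% intervals from the deposited standard errors, and diamonds are the values centred on genes of similar mean. The interval of RBFOX3 (0.13 to 0.81) lies above 0 and the other 4 hold 0.

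The order of the fold changes ran partly with the level of the genes. RBFOX3 and CELF3, with means of 1036 and 571, had the highest log2 fold changes, and MAP1A, with the highest mean, had the lowest. The whole table leaned the same way. The median log2 fold change of tested genes was 0.15 at means of 100 to 1000 normalised counts, -0.019 at 1000 to 10000 and -0.12 above 10000. The running median at the level of each gene was 0.079 for RBFOX3, 0.14 for CELF3, -0.010 for CELF5, -0.012 for TRIM9 and -0.025 for MAP1A. Measured from there, CELF3 stood at 0.046, CELF5 at 0.053 and TRIM9 at -0.063, while RBFOX3 stood at 0.39 (adjusted p = 0.125, no longer called) and MAP1A at -0.25 (uncalled). Set among the 500 genes nearest to each in mean, RBFOX3 lay above 85.4 percent, CELF5 above 59.4 percent, CELF3 above 54.2 percent, TRIM9 above 38.2 percent and MAP1A above 11.4 percent. Of the 500 genes nearest to RBFOX3, 77 were called higher and 26 lower in Hoxb8, against 23 higher and 31 lower around MAP1A.

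**Figure D2:**
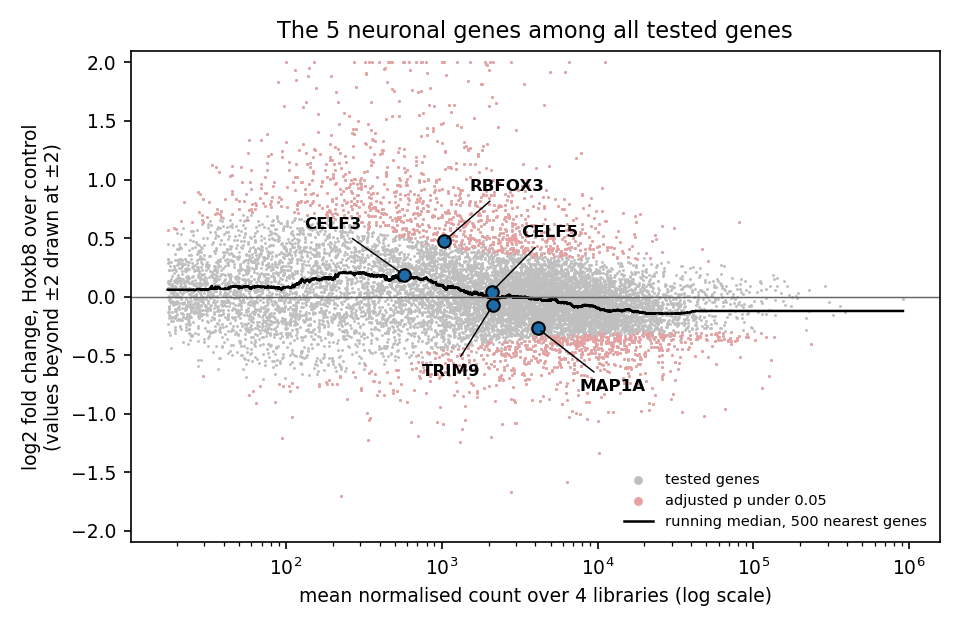
Log2 fold change, Hoxb8 over control, against the mean normalised count over the 4 libraries on a log axis, for all 12574 tested genes in grey, the 1913 called genes in pink and the 5 neuronal genes in blue. The running median over the 500 nearest genes is above 0 at low means and below 0 at high means, and RBFOX3 and MAP1A lie farthest from it among the 5.

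The errors of the 5 genes were those of other genes at their level. The deposited standard errors were between 0.946 (TRIM9) and 1.11 (MAP1A) times the median of genes of like mean. Counting alone would have given standard errors of 0.022 (MAP1A) to 0.060 (CELF3) on the log2 scale, taking 2 libraries per group at the mean level and a size factor of 1. The deposited errors were 3.29 times (CELF3) to 6.55 times (MAP1A) as large, and they also hold the spread between libraries. At 79237283 normalised counts per library on average, the means of the 5 genes lay between the 28.4 and 63.5 percentiles of tested genes.

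The genes with a symbol whose mean and fold change were closest to each of the 5 came from unrelated families. Likeness was the distance in the plane of log2 mean and log2 fold change, which rests on 2 columns of 1 comparison. Nearest to RBFOX3 were IGFBP5, a secreted binding protein of insulin-like growth factors (0.41 ± 0.19, adjusted p = 0.140), and the co-chaperone gene BAG2 (0.53 ± 0.17, adjusted p = 0.0183), as log2 fold changes per the authors' deposited table. BAG2 passed the threshold where IGFBP5 did not, and the call on BAG2, like that on RBFOX3, ended when values were centred on genes of similar mean (adjusted p = 0.0806). CELF3 had MIEF2 and KLF9 as its nearest genes, CELF5 had C14orf80 and GGPS1, TRIM9 had TMEM220 and ATG10, and MAP1A had TMEM38B and NKD1, none of them called per the authors' deposited table.

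Relatives of the 5 genes were few, since only 1432 of the 17108 genes per the authors' deposited table carry a symbol. Of 58 listed RNA-binding proteins of neurons, 6 were tested, namely RBFOX3, CELF3, CELF5 and 3 others. PTBP3, a paralogue of the splicing repressor PTBP1, was higher in Hoxb8 with a log2 fold change of 0.83 ± 0.19 at a mean of 537 per the authors' deposited table (adjusted p = 0.000218). RBM38, an RNA-binding target of p53, stood at 0.077 ± 0.13 and LIN28B, a repressor of let-7 microRNA maturation, at -0.091 ± 0.12 per the authors' deposited table, and neither was called. The direction of LIN28B turned to 0.052 when centred on genes of similar mean. In the list of general splicing factors, 1 of 4 tested genes was called, beside 15.2 percent over all tested genes. It was SRSF1, a founding member of the SR proteins, with -0.33 ± 0.12 per the authors' deposited table (adjusted p = 0.0347). Centred on genes of similar mean SRSF1 lost its call (-0.21, adjusted p = 0.268), and so it did with the genes over 10000 at a median of 0 (adjusted p = 0.227). The splicing kinase genes CLK1 (-0.23) and CLK4 (-0.086) and the spliceosome gene PRPF19 (-0.071) were not called, as log2 fold changes per the authors' deposited table, although CLK4 turned to 0.039 and PRPF19 to 0.054 with the genes over 10000 at a median of 0.

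The list of microtubule-associated and tubulin genes, which leaves out APC2 and MID2, gave no call as deposited. Of its 11 tested genes, MAP1A included, 0 passed in the authors' comparison, whose column names are those of DESeq2, beside 15.2 percent of all tested genes. An unadjusted p under 0.05 was held by 2 of the 11, as by 26.7 percent of all tested genes. Those 2, named after their values were seen, were MAPRE3, which binds growing microtubule ends (0.33 ± 0.15, adjusted p = 0.122), and the tubulin glutamylase gene TTLL2 (0.53 ± 0.26, adjusted p = 0.155), per the authors' deposited table. MAPRE3 passed with the genes over 10000 at a median of 0 (0.46, adjusted p = 0.0178). Their log2 fold changes ran from -0.27, that of MAP1A, to 0.53, that of TTLL2, with a median of -0.14. Without MAP1A the median of the other 10 was -0.085. The mitotic kinesin genes KIF20B (-0.14 ± 0.13) and KIF14 (-0.19 ± 0.17) and TTLL11 (-0.23 ± 0.13), which like TTLL2 encodes a tubulin glutamylase, were the most abundant of the others per the authors' deposited table. The tubulin gene TUBB and the dynactin gene DCTN1 were listed at 0, which does not show that they were silent.

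Within the TRIM family, 4 genes were tested and 1 was called, beside 15.2 percent called over all tested genes. MID2, which shares the domain plan of TRIM9 and binds microtubules, was lower in Hoxb8, with a log2 fold change of -0.48 ± 0.17 at a mean of 833 per the authors' deposited table (adjusted p = 0.0399). With the genes over 10000 at a median of 0, MID2 was no longer called (-0.36, adjusted p = 0.148). TRIM67, the closest paralogue of TRIM9, stood at 0.20 ± 0.27 at a low mean of 65.2, and TRIM47 at 0.27 ± 0.21, both uncalled per the authors' deposited table. For the netrin pathway, to which TRIM9 is tied in the mouse, the 1 tested gene of the list was the ligand gene NTN3, which was lower (-0.75 ± 0.14, adjusted p = 6.22e-06, per the authors' deposited table).

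**Figure D3:**
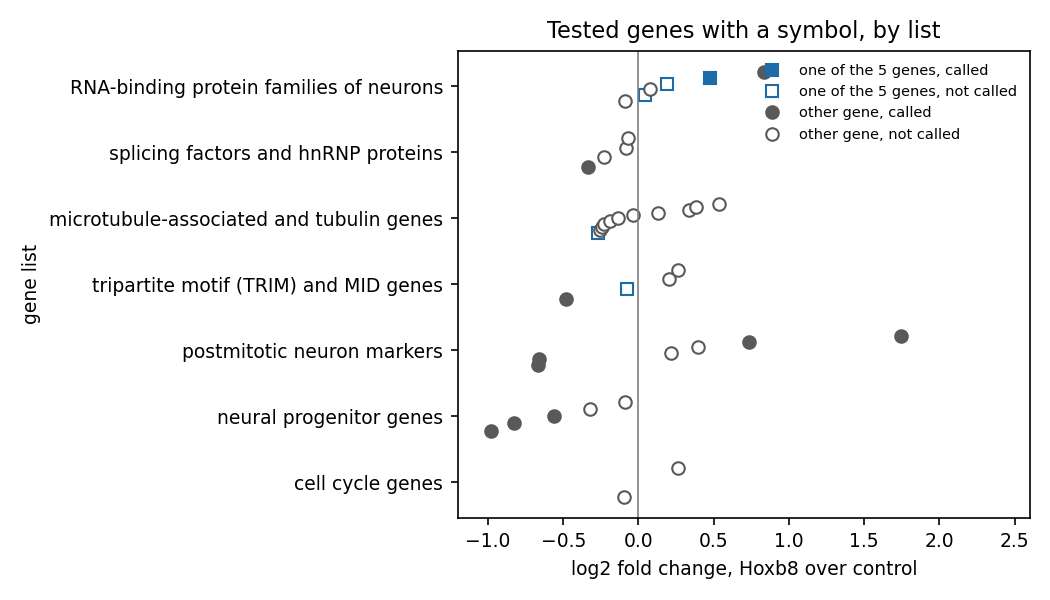
Log2 fold change, Hoxb8 over control, on the x axis for every tested gene with a symbol in 7 lists on the y axis. Squares are the 5 neuronal genes and circles other genes, filled where the authors' adjusted p was under 0.05. All 11 microtubule genes are open, where 15.2 percent of all tested genes were called. The neuron markers hold filled points on both sides of 0.

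Of 6 tested postmitotic neuron markers, 2 were called higher and 2 lower, and 2 were not called. Over all tested genes, 8.72 percent were called higher and 6.49 percent lower. The genes of this list were not shown here to be restricted to neurons or to follow their share. The calcium-binding protein gene CALB2 (1.75 ± 0.24, mean 211) and the secretogranin gene SCG2 (0.74 ± 0.21, mean 385) were higher in Hoxb8 per the authors' deposited table. APC2, a neuronal relative of the tumour suppressor APC that binds microtubules (-0.67 ± 0.13, mean 3768), and the secretory granule gene PTPRN2 (-0.66 ± 0.13, mean 26260) were lower there. The higher pair thus had lower means than the lower pair, the direction in which the whole table leaned. Whether level had a part in that split was not tested. SYN2, which coats synaptic vesicles, stood at 0.39 ± 0.23 and PTPRN at 0.21 ± 0.20 per the authors' deposited table, uncalled. SCG2 lost its call when centred on genes of similar mean (0.56, adjusted p = 0.0530), while CALB2 (1.58), APC2 (-0.64) and PTPRN2 (-0.52) kept theirs. NEUROD2 and NEUROD4 were listed at 0, which does not show that they were silent. Genes were matched to the lists by symbol alone. The defining markers TUBB3, ELAVL3, ELAVL4 and STMN2 were not analysed here, so the neuronal share was not checked on them.

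The list of neural progenitor genes gave 3 genes called lower, 0 higher and 2 uncalled among 5 tested. Over all tested genes, 6.49 percent were called lower and 8.72 percent higher. The genes of this list were not shown here to follow the share of progenitors, and that share was not tested. PTN (-0.98 ± 0.12, mean 19080), PAX3 (-0.82 ± 0.12, mean 14023) and NRARP (-0.56 ± 0.14, mean 11379) were lower per the authors' deposited table. ID3 stood at -0.32 ± 0.12 there, uncalled, and LIN28B, given above, was the other uncalled gene. Of the 2002 tested genes with a mean above 10000, 313 were called lower and 46 higher. PTN, PAX3 and NRARP stayed called when centred on genes of similar mean. FOXN4, the 1 tested gene of the commitment list, was higher (2.11 ± 0.18), and of the cell cycle genes CENPA (0.26 ± 0.20) and BUB3 (-0.095 ± 0.11) were not called per the authors' deposited table. Across all 14 lists, 47 distinct genes were tested, of which 7 were called higher and 8 lower. All of the lists were chosen with earlier results of these data known. Their counts, those of the progenitor list included, are thus a description and not a test against the shares over all genes.

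Markers of other cell types and of stress had few lines. Beside them, 8.72 percent of all tested genes were called higher and 6.49 percent lower. Of 2 tested blood and endothelium genes LMO2 was higher (1.48 ± 0.17), a gene that spinal interneurons also express, and PECAM1 stood at -0.028 ± 0.27 per the authors' deposited table. UNCX of the mesoderm list (-0.067 ± 0.25) and GRHL2 of the surface ectoderm list (-0.49 ± 0.26) were not called per the authors' deposited table, and the neural crest list had 0 tested genes. Of 4 stress genes, BAG3 was higher (0.93 ± 0.14), SESN2 stood at -0.52 ± 0.20, DNAJB9 at -0.23 ± 0.13 and ATF3 at -0.13 ± 0.19 per the authors' deposited table. The part of other cell types and of stress in the values of the 5 genes was not tested.

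The 5 genes all stand in the RefSeq gene table of the later assembly GRCg7b, where no 2 of them are neighbours. Among the 2 protein-coding genes on each side of each, 20 in all, 2 stood under their symbol in the authors' table. CBX2, a Polycomb subunit next to RBFOX3 in that order, was higher in Hoxb8 (0.39 ± 0.13, adjusted p = 0.0247, per the authors' deposited table). S1PR4, near CELF5, stood at 0.068 ± 0.24 per the authors' deposited table. Whether overlapping or antisense transcripts shared reads with these genes cannot be told apart from these values.

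RBFOX3 alone of the 5 genes passed under any setting. It did so in 6 of the 10, and failed when values were centred on genes of similar mean, when scores were divided by their central spread over all tested genes (1.74), with no filter on the mean, and at an adjusted p under 0.01. Those 4 settings called 0 of the 5 genes, and over all tested genes they called 12.6, 2.14, 12.1 and 9.42 percent, in that order. The thresholds of 0.1 and 0.01 read the same deposited adjusted p of RBFOX3, 0.0440, so the 10 settings are not 10 separate checks. Of the 17 named genes called as deposited, 11 were not called with scores divided by their central spread, namely RBFOX3, PTBP3, SRSF1, MID2, NTN3, APC2, PTPRN2, SCG2, NRARP, BAG2 and CBX2.

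**Figure D4:**
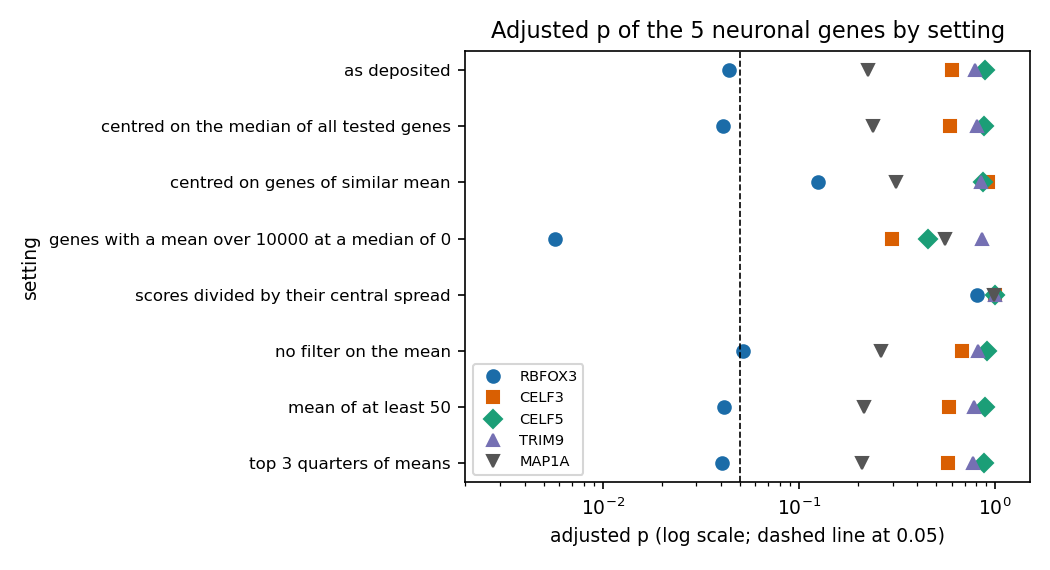
Adjusted p of the 5 genes on a log x axis under the deposited setting and 7 alternatives on the y axis, with a dashed line at 0.05. The points of RBFOX3 lie on both sides of the line (0.00575 to 0.804), and those of the other 4 genes lie to its right.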

How the data were processed

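The data were the authors' deposited table of 1 comparison, Hox against WT, taken as Hoxb8 over the pCIG control. Its genes are those of Ensembl 85 for Galgal4, per the file's name. Subread, featureCounts, DESeq2, DESeq and galGal4 are named, with no role or version, in the submitters' processing notes. How strand was treated was not given in the sources used here. Per the file headers, the deposited signal is a mean of size-factor-normalised counts over the 4 libraries. The deposited log2 fold changes and standard errors are the authors', and each deposited score is their ratio (largest deviation 9.24e-14). Standard errors are small among the low-mean genes given no adjusted p (median 0.114), so fold changes are moderated toward 0. The deposited p-values were adjusted over 12574 genes by Benjamini-Hochberg (largest deviation 1.89e-15).

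Intervals, implied group levels, ranks and 9 alternatives were computed with pandas 2.3.3, numpy 2.4.6 and scipy 1.17.1. The recalculation was tested on simulated data. The running median of similar genes used the 500 nearest in mean. The 5 genes, the lists and the alternatives were chosen with earlier results of these data known. From each list the text names the called genes (up to 6 by p) and the uncalled ones with the highest means (up to 4), plus MAPRE3 and TTLL2 (added after their values were seen), all genes of a member's symbol stem and the 2 nearest genes in mean and fold change.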

Additional observations from a re-analysis of the deposited data

How the results depend on the processing

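No paired analysis was possible because values per library are not part of the table. For the same reason leaving out single libraries, a replicate block and other normalizations or tools were not run. RBFOX3, the 1 gene of the 5 that was called, was not called (0 of 5) when centred on genes of similar mean (log2 fold change 0.39, adjusted p = 0.125), with scores divided by their central spread of 1.74 (0.47, adjusted p = 0.804), with no filter on the mean (0.47, adjusted p = 0.0520) or at an adjusted p under 0.01 (0.47). CELF3, CELF5, TRIM9 and MAP1A were not called under any of the 9 alternatives. The 1913 calls over all genes became 1184 at an adjusted p under 0.01 (431 lower) and 269 with scores divided by their spread (206 higher, 63 lower), where 6 rather than 15 listed genes passed. At an adjusted p under 0.01 BAG2, CBX2, MID2 and SRSF1 were lost as well. Calls were gained by IGFBP5 and MAPRE3 with genes over 10000 at a median of 0, ID3 at an adjusted p under 0.1, and SESN2 in 3 settings. With genes over 10000 at a median of 0, by construction of that shift, 1849 were higher and 361 lower (as deposited 1097 and 816). There the log2 fold changes of uncalled genes turned in TRIM9 (0.0499), ATG10 (0.0329), BUB3 (0.0295), CLK4 (0.0389), GGPS1 (0.121), LIN28B (0.0337), PECAM1 (0.0968), PRPF19 (0.0538), TMEM220 (0.0448) and UNCX (0.0579). Centred on genes of similar mean, BUB3 (0.050), GGPS1 (0.00707), LIN28B (0.0522), PRPF19 (0.0745) and S1PR4 (-0.00754) turned, and centred on the median of all genes GGPS1 (0.00182). A further 2287 genes with low means had a p but no adjusted p, none of them among the 5, and what depth limits there was not tested.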
